A study of Mus musculus with 32 samples.

Results

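The mitochondrial genome of the mouse contributed 37 genes to the expression table, out of 55401 genes in all. They were taken as every row whose Ensembl identifier carries, in the GRCm38 annotation, a symbol that begins with mt-, without regard to any measured value. They comprised 13 mRNAs, 2 ribosomal RNAs (rRNAs) and 22 transfer RNAs (tRNAs), all on chromosome MT. RNA was sequenced from the hypothalamus, the brain region that governs feeding and energy use, of 32 male mice of the strain C57BL/6NTac that differed in the gene Gpr101 and in diet. Gpr101 encodes an orphan G protein-coupled receptor on the X chromosome.

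The 4 groups were wild-type littermates on the control diet (WT_CD, 7 mice), wild-type littermates on high-fat diet (WT_HFD, 8 mice), hemizygous Gpr101 knockouts on the control diet (KO_CD, 8 mice) and hemizygous knockouts on high-fat diet (KO_HFD, 9 mice). Every mouse ate standard chow up to 7 weeks of age, and the high-fat diet then supplied 60% of its energy as fat until tissue was taken at 149 or 150 days. Age was not spread evenly, with 149-day mice making up 6 of 7 in WT_CD, 5 of 8 in KO_CD, 1 of 8 in WT_HFD and 1 of 9 in KO_HFD. The whole hypothalamus was used, so a lower value for a transcript may stand for fewer cells of a type or for less RNA per cell, which cannot be told apart in bulk tissue. Reads on genes ranged from 25.3 to 34.2 megareads per library, of which 1128321 to 1581572 lay on the 37 mitochondrial genes. Gpr101 itself had 2605 to 3145 reads in WT_CD, 2471 to 3472 in WT_HFD, 0 in all of KO_CD and 0 or 1 in KO_HFD. All 9 marker genes of hypothalamic neurons that were looked up, such as Agrp, Pomc and Sim1, were detected, and none stood at 0.

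Mitochondrial DNA is a small circle whose strands are both transcribed, from few start points, into long RNAs that span many genes. Enzymes cut these RNAs at the tRNAs, which lie between the other genes like punctuation, and so release the mRNAs and rRNAs. Most of the mRNAs and both rRNAs then gain a short poly(A) tail. The mRNAs encode subunits of respiratory complexes I, III and IV and of ATP synthase (complex V), the rRNAs (mt-Rnr1 and mt-Rnr2) build the mitochondrial ribosome, and the tRNAs serve only its translation. Neurons draw most of their ATP from this system.

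A few sequences help to read the counts that follow, all copied from the transcripts of the GENCODE M21 annotation of GRCm38. The first are the tRNA genes with enough reads to be tested, printed 5′ to 3′ on their own strand with the anticodon, the triplet that reads the codon, in capitals. On chromosome MT they cover MT:14071-14139 (glutamate, minus strand), MT:5260-5326 (tyrosine, minus), MT:15356-15422 (proline, minus), MT:15289-15355 (threonine, plus) and MT:5192-5257 (cysteine, minus). A stem of 5 base pairs closes the 7-base anticodon loop in 4 of them, and in mt-Tt 4 of the 5 positions pair.
mt-Te: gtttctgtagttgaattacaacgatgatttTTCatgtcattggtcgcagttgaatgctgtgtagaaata
mt-Ty: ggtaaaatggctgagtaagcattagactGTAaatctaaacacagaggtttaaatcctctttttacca
mt-Tp: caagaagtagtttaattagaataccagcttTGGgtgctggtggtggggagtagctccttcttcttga
mt-Tt: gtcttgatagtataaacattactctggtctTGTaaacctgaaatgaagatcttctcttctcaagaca
mt-Tc: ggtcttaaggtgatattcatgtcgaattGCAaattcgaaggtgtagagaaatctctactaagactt

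The next stretches show bases that neighbouring mRNAs share. The capitals mark bases that belong to both genes of a pair, 43 bases for mt-Atp8 and mt-Atp6 (MT:7927-7969) and 7 bases for mt-Nd4l and mt-Nd4 (MT:10167-10173), each with 15 bases on either side. In mitochondria each pair is read from 1 mRNA that carries both reading frames.
mt-Atp8 and mt-Atp6: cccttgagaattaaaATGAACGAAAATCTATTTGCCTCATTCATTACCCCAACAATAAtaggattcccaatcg
mt-Nd4l and mt-Nd4: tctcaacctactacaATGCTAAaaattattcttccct

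Copies of mitochondrial DNA also lie in the nuclear chromosomes, and the remaining lines show how like the originals they are. A stretch of mt-Co2 (MT:7457-7516, plus strand) is set beside the same stretch of the pseudogene Gm28661 (1:24615062-24615121, minus strand) and of Gm13341 (2:22587471-22587530, minus strand), with capitals where Gm13341 differs from mt-Co2. Gm28661 is identical over all 60 bases, whereas Gm13341 has 6 substitutions, counted from the first base of mt-Co2: T462C, C474T, C477T, A492C, G493A and C501A. The only mismatch between mt-Co1 and its copy Gm29216 over 483 aligned bases is A1066T, and the only mismatch between mt-Nd3 and Gm28438 over 345 bases is T3C. Both are shown with the differing base in capitals, for mt-Co1 at MT:6390-6413 against 1:24616165-24616188 and for mt-Nd3 at MT:9459-9481 against 1:24613097-24613119.
mt-Co2: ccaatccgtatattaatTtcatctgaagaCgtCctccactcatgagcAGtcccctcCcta
Gm28661: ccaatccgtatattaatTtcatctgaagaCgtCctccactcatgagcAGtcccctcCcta
Gm13341: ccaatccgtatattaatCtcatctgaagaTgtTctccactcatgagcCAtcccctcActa
mt-Co1: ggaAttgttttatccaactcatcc
Gm29216: ggaTttgttttatccaactcatcc
mt-Nd3: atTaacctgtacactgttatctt
Gm28438: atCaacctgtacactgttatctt

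In the annotation, 17 nuclear genes matched a mitochondrial mRNA or rRNA gene over at least 100 bases at 90% identity or more, and 10 of them had enough reads to be tested. Of these 10, 7 lie side by side on the minus strand of chromosome 1, from 24611535 to 24616197, and together held between 1.86% and 2.22% of all reads on genes (median 2.03%). Gm28661, identical to mt-Co2, had 1.0037 to 1.0066 reads for each read of mt-Co2 over the 32 libraries. That ratio varied between libraries by a coefficient of variation of 0.076%, where independent counting of reads would give 0.404%. Gm28437, identical to mt-Co3, behaved the same way with a ratio of 1.0017 to 1.0036. A copy and its original therefore did not give independent counts, and reads on the mitochondrial gene and on its identical copy cannot be told apart in these tables.

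The other chromosome 1 copies held more or fewer reads than their originals. Gm28439 covers 876 bases of mt-Nd4 and had 0.442 to 0.483 reads per read of mt-Nd4, and Gm29216 covers part of mt-Co1 and had 0.292 to 0.367 per read of mt-Co1. Gm10925, whose 678 bases are identical to mt-Atp6, had 1.76 to 1.98 reads per read of mt-Atp6, which shares part of its own bases with mt-Atp8 and mt-Co3. Gm10222 stood at 1.03 to 1.05 per read of mt-Nd4l and Gm28438 at 1.06 to 1.09 per read of mt-Nd3. The diverged copies on chromosome 2 were near the floor by comparison. Gm13340, 97.6% identical to mt-Co1, had 108 to 353 reads, Gm13341, 95.9% identical to mt-Co2, had 44 to 262, and Gm13339, 96.7% identical to mt-Nd2, had 8 to 41. None of the 7 untested copies passed 7 reads in a library. The genes mt-Nd1, mt-Nd5, mt-Nd6, mt-Atp8, mt-Cytb and both rRNAs had no annotated copy of at least 100 bases among those with enough reads. Nuclear DNA between annotated genes was not searched, and Gm10925 also covers bases that mt-Atp8 shares with mt-Atp6. These genes can therefore not be taken as free of reads from copies.

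**Figure D1:**
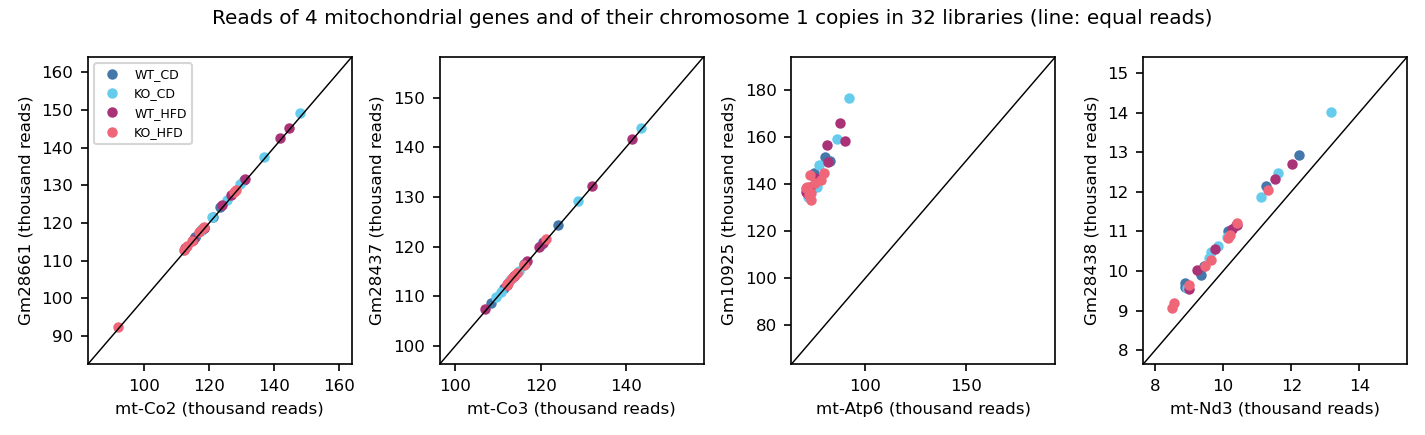
Reads on 4 chromosome 1 copies (vertical axes, kiloreads) against reads on their mitochondrial originals (horizontal axes, kiloreads), 1 point per library coloured by group, with a line of equal reads. Points of Gm28661 and Gm28437 lie on the line, with ratios between 1.0017 and 1.0066, while Gm10925 (1.76 to 1.98) and Gm28438 (1.06 to 1.09) lie above it.

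Levels of the members were compared per length, as reads per kilobase of gene and megaread on genes (RPKM, mean ± SD over 32 libraries). Among the mitochondrial rows, transcripts for complex IV, cytochrome c oxidase, led the order: mt-Co1, its catalytic core, at 7677 ± 145, mt-Co2, which takes up electrons from cytochrome c, at 6344 ± 389.6 and mt-Co3 at 5325 ± 183. The order among them held in nearly every library, with mt-Co1 above mt-Co2 in 32 of 32 and mt-Co2 above mt-Co3 in 31 of 32. This is the order of the rows as counted, without reads on nuclear copies. Per length, the copies of these genes stood at 6405 (Gm28661, of mt-Co2), 5345 (Gm28437, of mt-Co3) and 8026 (Gm29216, of part of mt-Co1). What the order would be with reads on copies added was not tested. Next among the mitochondrial rows came mt-Atp6, the proton channel subunit of ATP synthase, at 3985 ± 171. Its place depends on which row is read, since its copy Gm10925, identical over 678 bases, stood at 7559 on the same scale, between mt-Co1 and mt-Co2. Below mt-Atp6 came mt-Cytb, the only mitochondrially encoded subunit of complex III, at 3679 ± 177. The complex I transcripts mt-Nd1 (2853 ± 107) and mt-Nd4 (2769 ± 92.6) followed with overlapping ranges, mt-Nd1 being the higher in 23 of 32 libraries.

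Both rRNAs stood below the leading mRNAs, mt-Rnr1 (the small-subunit rRNA) at 2228 ± 156 and mt-Rnr2 (the large-subunit rRNA) at 2227 ± 148. The ranges of the rRNAs overlapped, mt-Rnr1 being above in 18 of 32 libraries. The lower part of the order held mt-Nd2 at 1960 ± 88.9, mt-Nd4l at 1936 ± 111 and mt-Atp8 at 1821 ± 148. Ranges overlapped for mt-Nd2 against mt-Nd4l (the former above in 17 of 32 libraries) and for mt-Nd4l against mt-Atp8 (26 of 32). Their order within libraries was not tested. Then followed mt-Nd5 at 1336 ± 74.7, mt-Nd3 at 1035 ± 111 and, lowest of the 13, mt-Nd6 at 857 ± 49.5. The neighbouring steps from mt-Atp8 down to mt-Nd6 kept their direction in 30 to 32 libraries.

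Transcripts that share a precursor were not level with each other. Per length, mt-Atp6 stood at 2.21 times mt-Atp8 and mt-Nd4 at 1.43 times mt-Nd4l on average. Reads on the overlapping bases may enter these ratios, as how they were counted is not given. For mt-Nd4, mt-Nd4l and mt-Atp6 the same holds for reads on nuclear copies. For mt-Atp8, reads on nuclear copies may enter as well. The only mRNA from the minus strand, mt-Nd6, stood lowest, with mt-Co1 at 8.99 times its level. Its sequence also stands apart from the 12 plus-strand mRNAs, with 28.1% G and 43.7% T where those held 5.88% to 16.1% G and 27.4% to 32.8% T. Lengths of mt-Co3, mt-Nd4 and mt-Cytb are not multiples of 3 and their annotated transcripts end in a single T, which the poly(A) tail completes to a stop codon.

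**Figure D2:**
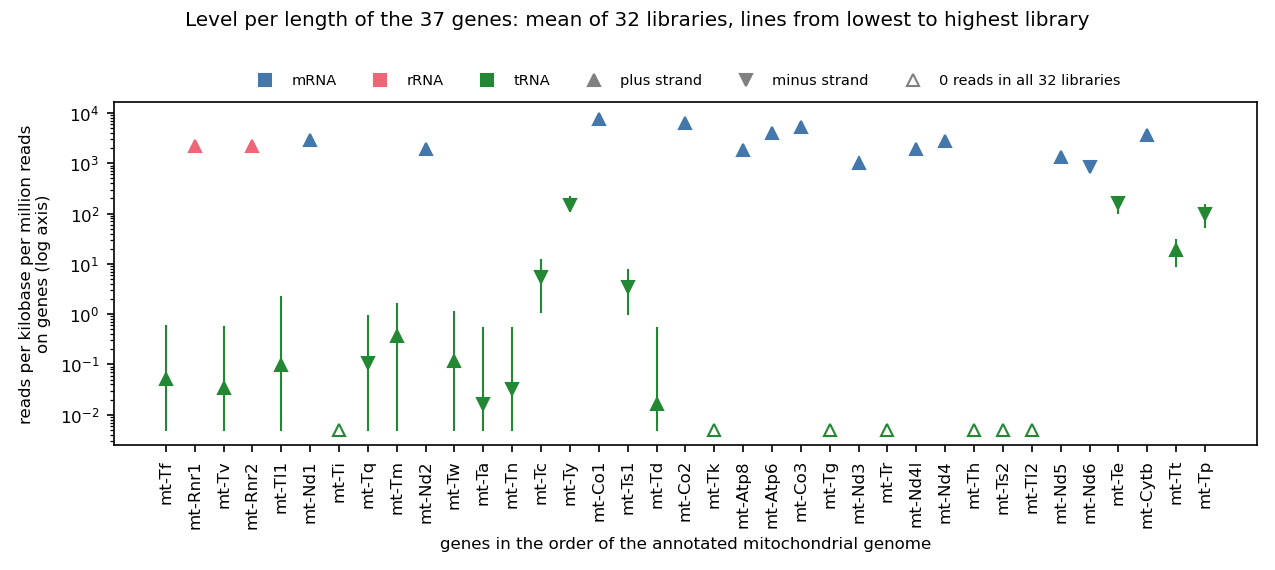
Mean level of each of the 37 genes in RPKM (vertical log axis), in the order in which the genes lie along the mitochondrial genome, with a line from the lowest to the highest of 32 libraries, RNA class by colour and strand by the direction of the triangle. The mRNAs and rRNAs lie between 857 and 7677, and open triangles at the lower edge stand for tRNAs with 0 reads in all libraries.

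Of the 22 tRNAs, 15 had a read in any library, 8 on the minus and 7 on the plus strand, but most reads were on minus-strand genes. Only 5 of 22 passed the filter on low values, a normalized count (reads divided by the library's size factor) of at least 10 in at least 7 libraries. They were mt-Te at 161 ± 27.5 RPKM, mt-Ty at 149.6 ± 25.5, mt-Tp at 98.8 ± 19.9, mt-Tt at 18.6 ± 4.32 and mt-Tc at 5.41 ± 2.49. All but mt-Tt lie on the minus strand, so that 4 of the 8 minus-strand tRNA genes but 1 of 14 plus-strand ones passed. Genes annotated on the minus strand held 95.6% of tRNA reads and 1.11% of mRNA reads. The strand setting of the counting is not given, so these shares need not give the strand the RNA came from. Of the 17 others, 7 (mt-Ti, mt-Tk, mt-Tg, mt-Tr, mt-Th, mt-Ts2 and mt-Tl2, all plus strand) had 0 reads in every library. By counting error alone this allows up to 0.00333 CPM (reads per megaread on genes) over the 32 libraries. How reads that span neighbouring genes were counted is not given, so this does not limit the level of the RNA itself. The other 10 had 269 reads in total and at most 15 in a library, the most from mt-Ts1 (2 to 15). The tRNA genes are 59 to 75 bases long and reads were 150 bases from each end, so counts of free tRNA and of longer RNA that spans a tRNA gene cannot be told apart. Whether libraries were made by poly(A) selection or by depletion of rRNA is not given in the sources used here, and shares of the 3 classes depend on it.

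As a share of all reads on genes, mitochondrial transcripts were steady from mouse to mouse. They took 4.18% to 4.83% in the 32 libraries, of which 87.6% was mRNA, 12.4% rRNA and 0.0648% tRNA. The 13 mRNAs together held 4.00% ± 0.0727 in WT_CD (SD, range 3.91% to 4.07%), 4.06% ± 0.125 in KO_CD (3.86% to 4.24%), 4.05% ± 0.0710 in WT_HFD (3.95% to 4.13%) and 3.93% ± 0.119 in KO_HFD (3.66% to 4.05%). Every pair of groups overlapped, and the lowest library of all was KO_HFD replicate 8. The rRNAs held 0.548% ± 0.0230 in WT_CD, 0.580% ± 0.0117 in KO_CD, 0.563% ± 0.0547 in WT_HFD and 0.567% ± 0.0431 in KO_HFD. Ranges of the rRNA share were 0.518% to 0.587%, 0.564% to 0.598%, 0.498% to 0.665% and 0.514% to 0.642% in the same order, so that KO_CD was the narrowest group and lay inside both high-fat groups. The tRNA share averaged 0.00304%, 0.00298%, 0.00294% and 0.00292%.

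**Figure D3:**
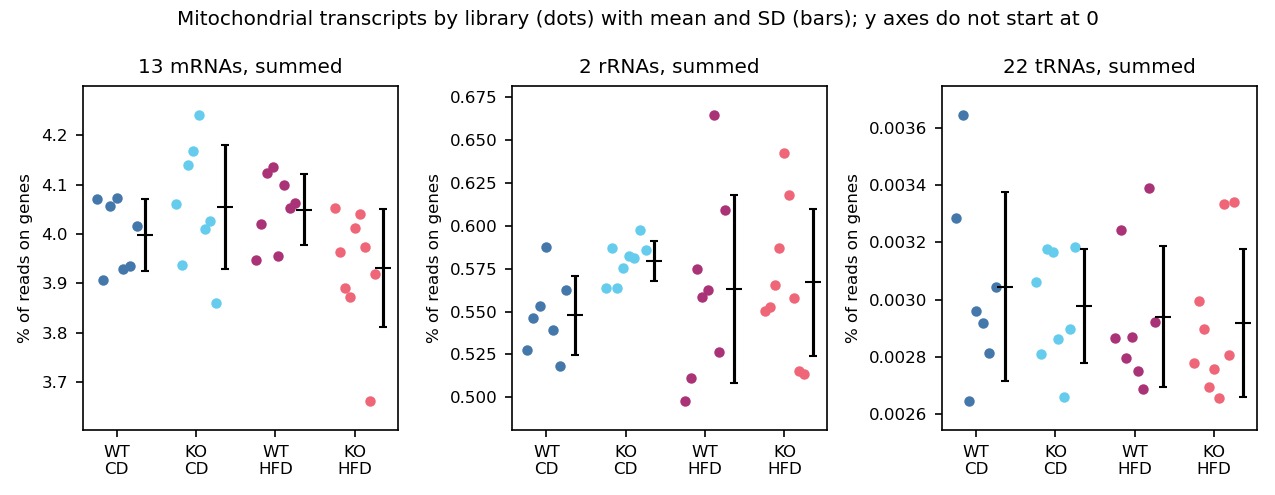
Share of reads on genes held by the summed mRNAs, rRNAs and tRNAs (percent, 1 panel per class with its own axis that does not start at 0), 1 point per library by group, with the group mean and SD. The 4 groups overlap in each panel, and KO_HFD replicate 8 is the lowest point for mRNA at 3.66%.

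How widely a transcript varied between mice of a group differed strongly among the members. The standard deviation within groups on the log2 scale (28 residual degrees of freedom) was smallest for mt-Co1, at 0.031, at the 3.9th percentile of 1052 nuclear genes with a mean of at least 5000 normalized counts, whose median was 0.050. Next were mt-Nd4 at 0.049, mt-Co3 at 0.050 and mt-Nd1 at 0.054, near the median of nuclear genes. At the other end of the mRNAs were mt-Nd3, a small complex I subunit, at 0.16 (98.8th percentile) and mt-Atp8, the smallest mRNA, at 0.12 (97.6th). Both rRNAs varied by 0.10 (95.5th percentile), and the remaining mRNAs lay between 0.064 and 0.091. Spread expected from counting alone was 0.0025 to 0.014 for the mRNAs, well below the observed spread of each. The tRNAs varied more, from 0.24 for mt-Ty to 0.65 for mt-Tc, where counting alone would give 0.086 for mt-Ty and 0.46 for mt-Tc.

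None of the 20 tested members passed the test between groups. The limma test across 19928 genes, with Benjamini-Hochberg adjustment and a threshold of 0.05, called 0 of 20 in each of 7 comparisons. These set knockout against wild type on either diet, high-fat against control diet in either genotype, the mean of each such pair of differences, and the interaction. Ranges of the groups compared overlapped for 20 of 20 members in all 4 pairwise comparisons, as they did for nearly every gene: the share of all genes with ranges apart was 0.0251% for genotype on control diet, 0.0201% for genotype on high-fat diet, 0.0652% for diet in wild type and 0.0552% for diet in knockout. Calls over all genes made up 0.00502% for genotype on control diet, 0.00502% for genotype on high-fat diet, 0.0251% for diet in wild type and 0.0351% for diet in knockout. The averaged comparisons called 0.00502% of genes for genotype and 0.336% for diet, and the interaction called 0%, so few genes of any kind passed. At an unadjusted p under 0.05 the members numbered 1, 3, 0 and 5 of 20 in the pairwise comparisons, in the order above, 1 and 1 in the averaged ones and 2 in the interaction. The corresponding shares of all genes were 4.12%, 5.15%, 7.39%, 7.04%, 5.72%, 11.1% and 3.39%. The limma-voom test on the recovered reads gave 0 calls and the same unadjusted counts.

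Among the rRNAs and mRNAs, mt-Rnr1 had the largest difference between genotypes on control diet. Normalized counts of mt-Rnr1 (lowest, median, highest) were 53163, 56921 and 59830 in WT_CD, 58818, 60898 and 62977 in KO_CD, 51363, 59421 and 70251 in WT_HFD and 54288, 59040 and 68491 in KO_HFD. The median of WT_CD lay below every KO_CD library and the groups overlapped only at the upper end of WT_CD, while both high-fat groups were wider than either. On control diet the knockouts had a log2 fold change of 0.11 (SE 0.051), a change of 7.70% (95% interval 0.128% to 15.8%), with adjusted p = 0.9999 by limma (unadjusted 0.0464). Values of mt-Rnr2 were 92261, 96458 and 104831 in WT_CD, 98437, 102070 and 104854 in KO_CD, 86294, 97801 and 115937 in WT_HFD and 85784, 96746 and 112323 in KO_HFD. For mt-Rnr2 the difference was 0.073 (SE 0.052), and as both rRNAs come from the same stretch of the precursor these are not separate observations. On high-fat diet mt-Rnr1 differed by 0.031 (SE 0.048), and by 0.0016 to 0.066 when single libraries were left out. In wild type it differed by 0.065 (SE 0.051) between diets, by 0.030 without WT_HFD replicate 6, and by -0.0033 with age as a term, which turns the direction. In the knockouts mt-Rnr2 differed by -0.063 (SE 0.049), and by -0.040 without KO_HFD replicate 8. The interaction for mt-Rnr1 was -0.076 (SE 0.070; -0.041 without WT_HFD replicate 6) and its genotype difference averaged over diets was 0.069 (SE 0.035). Per length, mt-Rnr1 stood at 0.969 ± 0.0259 times mt-Rnr2 in WT_CD, 0.992 ± 0.0169 in KO_CD, 1.01 ± 0.0143 in WT_HFD and 1.03 ± 0.0261 in KO_HFD, with overlapping ranges.

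In the mRNAs, the log2 fold changes of all 13 were below 0 for knockout against wild type on high-fat diet, and of all 13 for high-fat against control diet in the knockouts. Both comparisons share the KO_HFD libraries, and for diet in the knockouts mt-Atp8 and mt-Nd6 stood so near 0 that scaling to reads on all genes or on nuclear genes left 11 of 13 below 0, against 13 of 13 for genotype on high-fat diet under either scaling. Their medians were -0.057 and -0.051, against -0.0021 and -0.0011 over all genes tested, of which 51.5% and 50.6% were below 0. For genotype on control diet 3 of 13 were below 0 (median 0.017) and for diet in wild type 4 of 13 (median 0.015). The 13 transcripts arise largely from 1 precursor and several share bases, so their signs are not independent. Intervals limit what remained undetected: over the 13 mRNAs the 95% intervals reached from -9.57% to 17.5% for genotype on control diet, -12.6% to 8.23% for genotype on high-fat diet, -9.83% to 13.2% for diet in wild type and -15.8% to 8.57% for diet in knockout.

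Complex I is the entry point of electrons from NADH, and 7 of its subunits are mitochondrially encoded. Normalized counts of mt-Nd4, a core subunit of its proton-pumping arm, were 103101, 105563 and 109188 in WT_CD, 102367, 107631 and 113304 in KO_CD, 104623, 109082 and 112719 in WT_HFD and 94085, 104913 and 108553 in KO_HFD. Most of KO_HFD lay inside the range of WT_HFD, with KO_HFD replicate 8 far below. Every KO_HFD value of mt-Nd4 lay below the WT_HFD median of mt-Nd4. On high-fat diet its genotype difference was a log2 fold change of -0.063 (SE 0.022), a change of -4.28% (95% interval -7.14% to -1.34%), with unadjusted p = 0.00567 and adjusted p = 0.948 by limma. For mt-Nd4 the interaction was -0.086 (SE 0.032, adjusted p = 0.9988 by limma), the difference between diets 0.035 (SE 0.023) in wild type and -0.050 (SE 0.022) in knockouts. Counts of mt-Nd2, another pump subunit, were 53982, 57220 and 62830 in WT_HFD and 48677, 55734 and 57989 in KO_HFD, a log2 difference of -0.070 (SE 0.031) with overlapping groups. In the knockouts the diet differences of mt-Nd1, mt-Nd3 and mt-Nd4l were -0.050 (SE 0.024), -0.093 (SE 0.075) and -0.090 (SE 0.039). That of mt-Nd1 was -0.028 with age as a term, and that of mt-Nd3 was -0.048 without KO_CD replicate 5 and -0.062 without KO_HFD replicate 9.

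The other complex I transcripts overlapped between groups as well. For mt-Nd5 the normalized counts were 68094, 70091 and 73121 in WT_CD, 63895, 68479 and 73987 in KO_CD, 59981, 68414 and 74184 in WT_HFD and 57328, 66086 and 70865 in KO_HFD, groups that overlap throughout. Its smallest p was for diet averaged over genotypes, at -0.057 (SE 0.027, unadjusted p = 0.0440, adjusted p = 0.443 by limma), with -0.042 (SE 0.040) in wild type, or -0.015 without WT_HFD replicate 6. The minus-strand mt-Nd6 had counts of 11861, 13017 and 13671 in WT_CD, 10917, 12111 and 13582 in KO_CD, 11813, 12551 and 13688 in WT_HFD and 11754, 12080 and 12974 in KO_HFD. Its genotype difference averaged over diets was -0.060 (SE 0.028, unadjusted p = 0.0387, adjusted p = 0.866 by limma), and on control diet alone -0.063 (SE 0.040), where mt-Nd6 was one of the 3 mRNAs below 0. Its value on control diet was -0.040 without KO_CD replicate 8 and -0.025 in mice of 149 days only. Mean normalized counts of mt-Nd1 were 76889 ± 2234 in WT_CD, 77833 ± 3772 in KO_CD, 76224 ± 3276 in WT_HFD and 75116 ± 1937 in KO_HFD (SD). Those of mt-Nd3 were 9987 ± 1073 in WT_CD, 10477 ± 1190 in KO_CD, 10099 ± 1148 in WT_HFD and 9819 ± 1041 in KO_HFD, and those of mt-Nd4l were 16209 ± 769.9 in WT_CD, 16535 ± 839 in KO_CD, 16225 ± 1159 in WT_HFD and 15538 ± 768 in KO_HFD. The wide SD of mt-Nd3 in WT_CD includes replicate 4, at 12110.

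Complex III and complex IV carry electrons on to oxygen. Normalized counts of mt-Cytb were 115192, 118863 and 122963 in WT_CD, 114159, 120500 and 126987 in KO_CD, 116159, 119586 and 127290 in WT_HFD and 92071, 114486 and 120815 in KO_HFD. The KO_HFD group reached the lowest value, in replicate 8, yet overlapped each other group. On high-fat diet the genotype difference of mt-Cytb was a log2 fold change of -0.086 (SE 0.034), a change of -5.76% (95% interval -10.2% to -1.06%), and in the knockouts the diet difference was -0.084 (SE 0.034), each with unadjusted p of 0.0186 and 0.0202 and adjusted p of 0.948 and 0.612 by limma. Counts of mt-Co2 were 117851, 119515 and 122316 in WT_CD, 114382, 126098 and 135417 in KO_CD, 117373, 122235 and 130042 in WT_HFD and 93989, 119104 and 129859 in KO_HFD. Its diet difference in the knockouts was a log2 fold change of -0.11 (SE 0.044), a change of -7.17% (95% interval -12.8% to -1.19%), with adjusted p = 0.618 by limma. The interaction of mt-Co2 was -0.15 (SE 0.064), from a genotype difference of 0.065 (SE 0.047) on control and -0.082 (SE 0.044) on high-fat diet. In mice of 149 days only, that on control diet was 0.10.

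The most abundant member was also the steadiest. Counts of mt-Co1 were 321691, 334938 and 338842 in WT_CD, 324379, 334114 and 347159 in KO_CD, 325178, 332486 and 344239 in WT_HFD and 312648, 332281 and 335258 in KO_HFD. On high-fat diet its genotype difference was -0.013 (SE 0.015), the smallest standard error of the 13 mRNAs in that comparison, and lay at -0.017 to -0.0031 when single libraries were left out. Means of mt-Co3 were 115527 ± 3179 in WT_CD, 119163 ± 4976 in KO_CD, 117329 ± 4223 in WT_HFD and 115619 ± 3605 in KO_HFD, with a genotype difference on control diet of 0.044 (SE 0.024). For the ATP synthase transcripts, means of mt-Atp6 were 75250 ± 2907 in WT_CD, 77422 ± 3669 in KO_CD, 76675 ± 3695 in WT_HFD and 74706 ± 3236 in KO_HFD and those of mt-Atp8 were 10457 ± 932 in WT_CD, 10354 ± 776 in KO_CD, 10456 ± 821 in WT_HFD and 10359 ± 925 in KO_HFD.

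The tested tRNAs had far wider intervals. Counts of mt-Tp were 148, 208 and 261 in WT_CD, 125, 172 and 229 in KO_CD, 158, 186 and 276 in WT_HFD and 101, 189 and 209.6 in KO_HFD, all groups overlapping, and its genotype difference was -0.17 (SE 0.15) on control diet, -0.20 (SE 0.14) on high-fat diet and -0.19 (SE 0.10) averaged. The value on control diet was -0.11 without WT_CD replicate 3 and -0.11 without KO_CD replicate 1, that on high-fat diet -0.11 without KO_HFD replicate 9 and -0.13 without WT_HFD replicate 6, and the averaged one -0.12 with the replicate block. For mt-Ty the counts were 209.8, 263 and 398 in WT_CD, 236, 278 and 324 in KO_CD, 219.7, 253 and 303 in WT_HFD and 252, 277 and 395 in KO_HFD. Its genotype difference on high-fat diet was 0.18 (SE 0.11) and its interaction 0.18 (SE 0.16), or 0.093 without WT_CD replicate 2. With a median of 9.5 reads, mt-Tc differed by -0.30 (SE 0.22) between diets averaged over genotypes, and over the 5 tRNAs the 95% intervals for diet in wild type reached from -48.4% to 28.3%. Means of mt-Te were 314 ± 50.5 in WT_CD, 324 ± 50.1 in KO_CD, 313 ± 67.2 in WT_HFD and 296 ± 49.0 in KO_HFD and those of mt-Tt 36.9 ± 8.92 in WT_CD, 34.9 ± 6.80 in KO_CD, 36.1 ± 9.12 in WT_HFD and 32.4 ± 8.54 in KO_HFD.

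**Figure D4:**
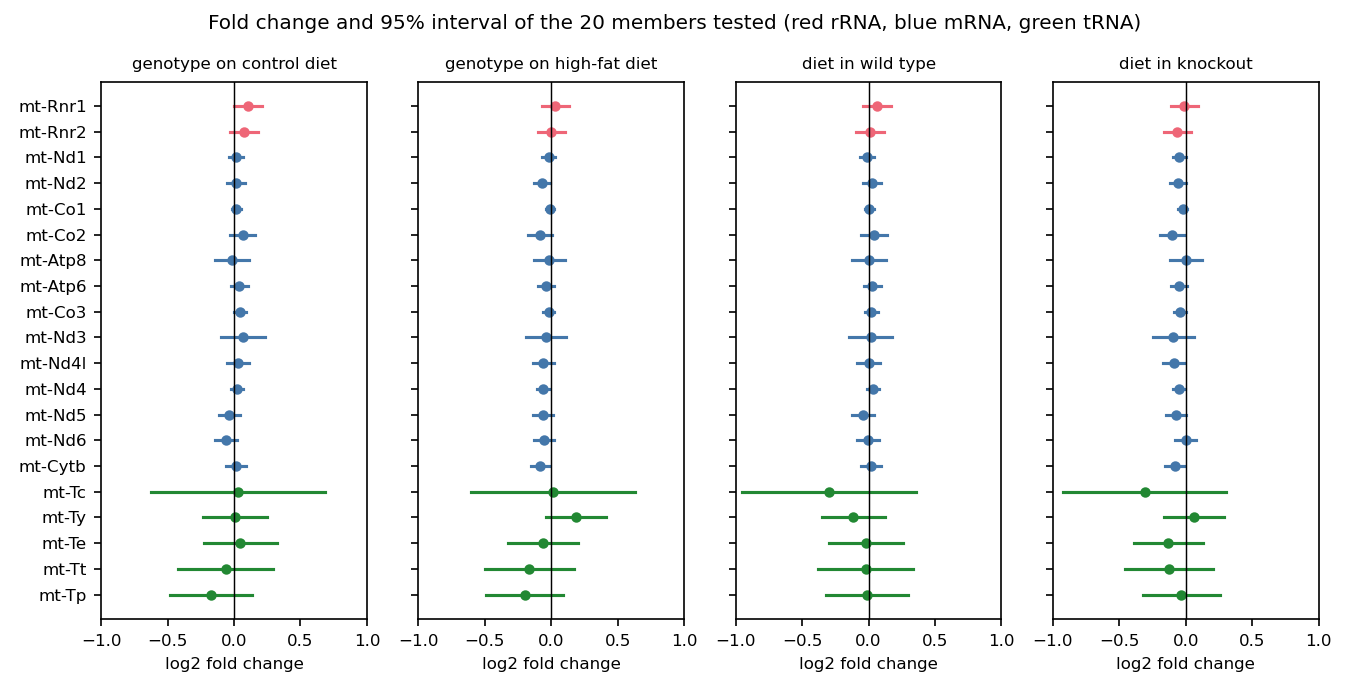
Log2 fold change of the 20 tested members (horizontal axis, with 95% intervals from limma) in each pairwise comparison, members by class on the vertical axis. All 13 mRNAs lie left of 0 for genotype on high-fat diet (median -0.057) and for diet in knockout (median -0.051, 11 of 13 when scaled to reads on genes), and no member was called.

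KO_HFD replicate 8 bears on both of those comparisons. It was the lowest of its group for mt-Nd2, mt-Co1, mt-Co2, mt-Nd4, mt-Nd4l, mt-Nd5 and mt-Cytb, and for mt-Rnr2 and mt-Tc. It was the highest of its group for mt-Atp8 (12360 normalized counts) and mt-Tt (43.0). The same library had the highest summed level of 8 nuclear-retained RNAs (such as Malat1 and Meg3, which stay in the nucleus) of all 32, 523815 normalized counts against a median of 489900, and the lowest of 5 ependymal markers. Their part in the result was not tested. Without this library the genotype difference on high-fat diet was -0.045 for mt-Nd4, -0.049 for mt-Cytb, -0.048 for mt-Nd2 and -0.043 for mt-Co2. That of mt-Atp8 moved the other way, from -0.014 to -0.047. The median of the mRNAs was then -0.045, with 13 of 13 below 0 and 2 members at an unadjusted p under 0.05. In the knockouts the diet differences became -0.068 for mt-Co2, -0.047 for mt-Cytb and -0.032 for mt-Nd4, with 12 of 13 below 0, and the interaction -0.067 for mt-Nd4 and -0.11 for mt-Co2. No member was called with or without it.

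Other measures also moved with diet or between libraries. Of 5 blood genes (the globins Hba-a1, Hba-a2, Hbb-bs and Hbb-bt, and Alas2 of haem synthesis), 4 were called higher on high-fat diet averaged over genotypes by limma, with a median log2 fold change of 0.59. That count depended on single libraries: it was 0 of 5 in 15 of 32 fits that left out 1 library, and 0 with age as a term. Summed blood genes ranged over 9586 to 15877 normalized counts in WT_CD, 9038 to 20283 in KO_CD, 14621 to 39562 in WT_HFD and 14641 to 35458 in KO_HFD, with none of the 5 at 0. Their part in the diet differences of the members was not tested. Markers of neurons, astrocytes, oligodendrocytes, microglia, endothelium, ependyma, choroid plexus and meninges had 0 called in any comparison, and in diet averaged over genotypes 1 of 6 markers of thalamus and habenula was called higher and 2 of 9 hypothalamic markers were called, 1 in each direction.

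Markers of the meninges and the ependyma, with 0 called, still lay to one side of 0. All 7 meningeal markers (such as Dcn and Col1a1 of the fibroblast matrix) had log2 fold changes above 0 on high-fat diet, with a median of 0.42 averaged over genotypes, 0.56 in wild type and 0.28 in knockouts, and 1 of 7 had an unadjusted p under 0.05 in the averaged comparison. Of all genes, 11.1% had such a p in that comparison. In all 40 alternatives, which refit the same libraries, all 7 markers stayed above 0 in the averaged comparison, with medians of 0.35 to 0.63. Their summed level ranged over 1342 to 3252 normalized counts in WT_CD, 1149 to 4570 in KO_CD, 1169 to 5598 in WT_HFD and 1379 to 5559 in KO_HFD, so the groups overlapped widely. All 5 ependymal markers (such as Foxj1 of ciliated cells) lay below 0 for knockout against wild type, with a median of -0.12 averaged over diets. In the averaged comparison 4 of 5 had an unadjusted p under 0.05, as did 5.72% of all genes. All 5 markers were below 0 in all 40 alternatives, which again refit the same libraries. Their summed level was 1478 to 2165 in WT_CD, 1483 to 1732 in KO_CD, 1601 to 1908 in WT_HFD and 1366 to 1873 in KO_HFD. None of these 12 genes stood at 0 in every library, and over all genes the medians were -0.00076 for diet and -0.0018 for genotype. Their part in the differences of the members was not tested. Libraries in runs of 8 consecutive label numbers, whose meaning the labels do not give, had mean mRNA shares of 4.00%, 4.06%, 4.03% and 3.95% and rRNA shares of 0.542%, 0.571%, 0.589% and 0.559%.

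Nuclear genes that make, cut and translate the mitochondrial transcripts were not called either. Among 44 tested genes for mitochondrial transcription, RNA processing and translation, 0 were called in each of the 7 comparisons. The members of smallest unadjusted p for genotype on control diet were Trmt10c, a subunit of the enzyme that cuts the 5′ end of tRNAs (0.087, SE 0.057), Mto1, a tRNA modifier (0.062, SE 0.044), Elac2, which cuts the 3′ end (-0.073, SE 0.037), and Hsd17b10, another subunit of the 5′ enzyme (-0.075, SE 0.047), all as log2 fold changes. Trmt10c was at 0.044 without WT_CD replicate 2, and Mto1 at 0.035 without WT_CD replicate 1. For genotype on high-fat diet they were Pnpt1, a mitochondrial RNA-degrading enzyme (0.083, SE 0.037), Tfb1m, which methylates the small rRNA (0.18, SE 0.085), Tefm, the elongation factor (-0.14, SE 0.075), and Mto1 (-0.063, SE 0.041). In wild type the diet differences were 0.087 (SE 0.055) for Fastkd3, 0.082 (SE 0.057) for Trmt10c, -0.068 (SE 0.037) for Elac2 and -0.15 (SE 0.090) for Tfb1m, that of Trmt10c being 0.039 without WT_CD replicate 2. In the knockouts they were 0.28 (SE 0.15) for Fastkd5, 0.076 (SE 0.044) for Hsd17b10, -0.058 (SE 0.034) for Tbrg4 and -0.066 (SE 0.041) for Mto1, and with age as a term that of Fastkd5 was 0.12. Genes of the FASTK family, to which Fastkd3, Fastkd5 and Tbrg4 belong, act on mitochondrial RNA.

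Genes that set or mark the number of mitochondria gave the same count. Of 11 regulators, 0 were called, and the smallest adjusted p was that of Nrf1, a transcription factor of nuclear mitochondrial genes, for diet averaged over genotypes (-0.10, SE 0.031, adjusted p = 0.152 by limma). In the knockouts the diet difference of Nrf1 was -0.12 (SE 0.042) and that of Sirt1, a deacetylase, 0.11 (SE 0.043), or 0.055 with age as a term. Of 8 genes for abundant mitochondrial proteins 0 were called, with Tomm20, an import receptor, at 0.058 (SE 0.021) for genotype on high-fat diet and Slc25a4, an ADP/ATP carrier, at 0.051 (SE 0.023) on control diet. Of 12 mitochondrial stress genes 0 were called, the stress factor Atf4 standing at 0.083 (SE 0.036) for diet in wild type. Of the 10 tested nuclear copies 0 were called. Of 17 RNAs that lack a poly(A) tail, such as replication-dependent histone mRNAs and small nuclear RNAs, 6 had enough reads, 3 stood at 0 in every library and 0 were called, with the small nuclear RNA Rn7sk at -0.54 (SE 0.15) for diet in wild type.

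The nuclear partners of the mitochondrial mRNAs are the 76 other subunits of oxidative phosphorylation, and 0 of 76 were called in any comparison. Their log2 fold changes were above 0 for 64 of 76 for genotype on control diet, 32 for genotype on high-fat diet, 51 for diet in wild type and 21 for diet in knockout. Medians were 0.028, -0.0081, 0.013 and -0.029 in that order. Over all genes tested, 50.2%, 51.5%, 50.1% and 50.6% lay below 0. Of 75 tested cytosolic ribosomal protein genes, 37, 13, 62 and 37 were above 0, so lopsided signs were not particular to the respiratory subunits. Genes of a list share libraries and a scaling, and their signs are not independent. For genotype on control diet Atp5l of ATP synthase stood at 0.14 (SE 0.058) and Ndufv2 of complex I at 0.062 (SE 0.030); for genotype on high-fat diet the complex I genes Ndufa7 and Ndufa12 stood at -0.083 (SE 0.033) and -0.15 (SE 0.067), the latter at -0.087 without KO_HFD replicate 8. In the knockouts the diet difference was -0.092 (SE 0.035) for Uqcr10 of complex III and -0.072 (SE 0.028) for Sdhb of complex II, the complex with no mitochondrially encoded subunit.

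Across the 32 libraries, with group means taken off, members of a class moved together unevenly. These correlations describe libraries that share a depth and a scaling, and they carry no test. The rRNAs were the closest pair, r = 0.95 (rho 0.93, r 0.93 without the 2 farthest libraries). Among the 78 pairs of mRNAs the median r was 0.36, with 28 above 0.5 and 19 below 0. The pair mt-Co2 and mt-Cytb had r = 0.88 (rho 0.73, r 0.76 without the 2 farthest libraries), mt-Atp6 and mt-Nd3 had r = 0.85 (rho 0.82, r 0.79 without the 2 farthest libraries), and mt-Nd4 and mt-Cytb had r = 0.83 (rho 0.70, r 0.71 without the 2 farthest libraries). The mRNA pair lowest in r, mt-Co2 and mt-Atp8, had r = -0.52 (rho -0.30, r -0.30 without the 2 farthest libraries). Genes that share an mRNA were not the closest pairs: mt-Atp8 and mt-Atp6 had r = -0.49 (rho -0.41, r -0.39 without the 2 farthest libraries) and mt-Nd4l and mt-Nd4 had r = 0.49 (rho 0.52, r 0.63 without the 2 farthest libraries). The part of shared bases and of reads on nuclear copies in these values was not tested.

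The minus-strand tRNAs split in 2 directions. For mt-Te and mt-Ty the values were r = 0.63 (rho 0.64, r 0.58 without the 2 farthest libraries), whereas mt-Tp ran against both, with r = -0.68 (rho -0.65, r -0.59 without the 2 farthest libraries) for mt-Te and r = -0.67 (rho -0.69, r -0.64 without the 2 farthest libraries) for mt-Ty. Pairs of an mRNA with a tRNA had a median r of 0.045, and mt-Te with mt-Rnr1 had r = -0.53 (rho -0.49, r -0.44 without the 2 farthest libraries). Summed mRNAs and summed rRNAs had r = 0.44 (rho 0.28, r 0.40 without the 2 farthest libraries), and a library held 12.6 to 16.2 rRNA reads per 100 mRNA reads. Neither sum tracked depth closely (r = -0.082 for mRNAs and 0.30 for rRNAs).

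**Figure D5:**
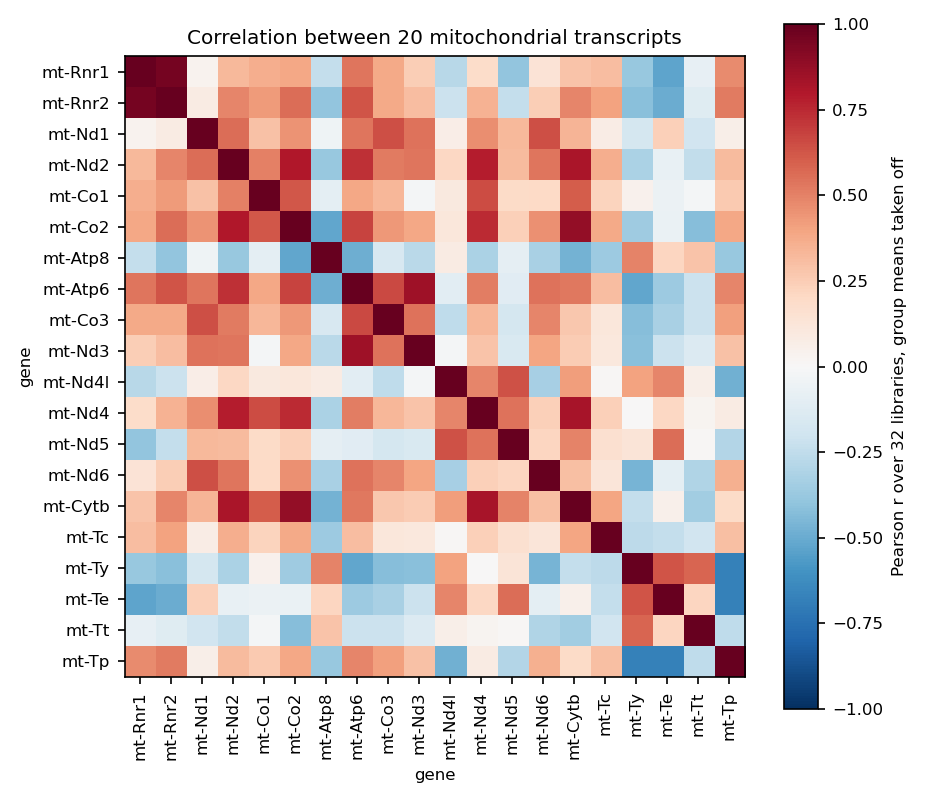
Pearson correlation between every pair of the 20 tested members over 32 libraries after removal of group means, as a coloured grid ordered by class, from -1 to 1. Off the diagonal, the rRNA pair is the deepest positive cell at 0.95, and mt-Tp is negative with mt-Te (-0.68) and mt-Ty (-0.67).

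Nuclear lists were set beside the summed mRNAs in the same way. The nuclear subunits of oxidative phosphorylation had r = 0.49 with the mRNAs (rho 0.56, r 0.60 without the 2 farthest libraries) and r = 0.69 with the rRNAs (rho 0.48, r 0.58). Hypothalamic markers had r = 0.57 with the mRNAs (rho 0.67, r 0.61), and nuclear-retained RNAs had r = -0.47 (rho -0.41, r -0.32). Cytosolic ribosomal protein genes, which have no role in mitochondrial translation, had r = 0.54 (rho 0.59, r 0.50), so a correlation of this size was not limited to mitochondrial lists. One library, WT_HFD replicate 6, was the highest of 32 for the nuclear subunits (258895 normalized counts), for rRNA share (0.665%) and for ribosomal proteins, and the lowest for nuclear-retained RNAs (421436).

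Single genes whose level followed the summed mRNAs most closely were chosen by the highest and lowest r over 19908 tested genes outside the mitochondrial genome, where the median r was -0.0081 and the 5th and 95th percentiles were -0.37 and 0.42. The top were Gm28661 (r = 0.90, rho = 0.86, and r = 0.83 without the 2 farthest libraries) and Gm29216 (r = 0.82, rho = 0.71, and r = 0.72 without the 2 farthest libraries), the copies of mt-Co2 and mt-Co1 described above. Below these came Ubald1 (r = 0.77, rho = 0.65, and r = 0.62 without the 2 farthest libraries), Elob, a subunit of elongin (r = 0.76, rho = 0.58, and r = 0.57 without the 2 farthest libraries), and Cd81, a tetraspanin (r = 0.76, rho = 0.67, and r = 0.64 without the 2 farthest libraries). At the other end were Eaf1, an RNA polymerase II elongation cofactor (r = -0.77, rho = -0.65, and r = -0.67 without the 2 farthest libraries), and Xiap, an inhibitor of caspases (r = -0.70, rho = -0.66, and r = -0.55 without the 2 farthest libraries). These genes were picked from the extremes of many, and their r describes these 32 libraries only.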

How the data were processed

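RNA of 32 hypothalami was sequenced with a stranded paired-end protocol of 150 bases per read, per the labels' protocols. Per the submitters' processing notes, reads were handled with STAR 2.7.6a, cutadapt 2.10 and Trim Galore 0.6.2, with FastQC, and with DESeq2 1.28.1 under R 4.0.2, on build GRCm38. How reads were counted, with which strand setting and with what treatment of multiple matches, is not given in the sources used here. Values the authors deposited are log2. Each is the log2 of reads over a size factor of its library, 0 reads being listed as the log2 of 0.1, and undoing this gave whole reads for 100% of values (tolerance 1e-06 reads).

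Values were taken as log2(normalized count + 1), and 19928 genes that reached a normalized count of 10 in at least 7 libraries were fitted with limma 3.58.1 (R 4.3.3, statmod 1.5.0) to 4 group means with an intensity trend and robust moderation. Tests were two-sided, and p-values were Benjamini-Hochberg adjusted over all 19928 genes. Because the deposited unit is log2, limma was the planned test, and limma-voom on the recovered reads was an alternative. The fit was tested on simulated data. Alternatives were a pseudocount of 5, no filter, scaling to reads on all or on nuclear genes, the replicate number as a block, age or runs of 8 label numbers as a term, 1 age only, and leaving out each library in turn. That nuclear genes and markers of blood, meninges and ependyma were also run under them was chosen after seeing the data. Nuclear copies were found with blastn 2.17.0. Replicate numbers came from the labels. The labels name each library as a biological replicate of its own. The fit compares libraries of the table as deposited, its 95% intervals rest on the spread between libraries, and limits of 0 counts cover counting error only. Symbols and coordinates were matched for 55141 of 55401 identifiers.

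All 37 genes were accounted for. Both rRNAs, the 13 mRNAs and tRNAs above the filter were named, and from nuclear lists up to 2 genes in each direction with the smallest unadjusted p. The members and all lists were chosen with earlier results of these data known.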

Additional observations from a re-analysis of the deposited data

Results flagged for a closer look

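Each of 20 tested members and the 3 class shares was searched in each group for a library whose gap to its nearest neighbour was large for the range of the group (Dixon's criterion at the 95% level). This found 10 among 92 group-wise sets, where chance would give about 1 in 20. The sets are not independent, since class shares sum the members and many members move together across libraries. The count of 10 can therefore not be read as an excess. Of the 10, 5 were the same library, KO_HFD replicate 8, as the lowest of its group. It held 48677 normalized counts of mt-Nd2 (next lowest 53992), 312648 of mt-Co1 (next 324172), 94085 of mt-Nd4 (next 103047) and 92071 of mt-Cytb (next 111317). Its summed mRNAs took 3.66% of reads on genes, where the next library had 3.87%.

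WT_CD replicate 4 was flagged as the highest of its group for mt-Atp6, at 81496 (next highest 75547), and for mt-Nd3, at 12110 (next 10302). Without a flag, it was also the highest of its group for mt-Rnr2, mt-Nd2, mt-Co3 and mt-Cytb. WT_HFD replicate 6 was flagged as the lowest for mt-Nd5, at 59981 (next 67486). For the tRNAs, mt-Tc was high in KO_CD replicate 6 at 22.5 (next 13.3) and mt-Tt in WT_HFD replicate 7 at 56.3 (next 39.4), both at low counts.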

How the results depend on the processing

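The count of called members was 0 of 20 in all 7 comparisons under every alternative run, 41 fits for each genotype comparison by diet and 40 for each other one, and leaving out 1 library at a time gave 0 to 0. The smallest adjusted p by limma of any member in any of these fits was 0.325, for diet averaged over genotypes. Counts at an unadjusted p under 0.05 ranged over 0 to 5, 2 to 5, 0 to 1 and 2 to 9 in the pairwise comparisons, 0 to 3 and 0 to 2 in the averaged ones and 1 to 6 in the interaction. Of 1696 alternative values of 42 fold changes of members, 1695 kept their direction and their side of the threshold. The exception was mt-Rnr1 for diet in wild type, which was -0.0033 with age as a term; age and diet nearly coincide in wild type. Of 1456 such values of 36 nuclear genes, 1451 did so, and the other 5 were Rps10, a ribosomal protein, for diet averaged over genotypes, whose adjusted p by limma passed 0.05 without KO_HFD replicate 4 or 7, WT_CD replicate 3 or 7, or WT_HFD replicate 6. Many of these values could not move, since leaving out a library of an uninvolved group cannot change a pairwise fold change. No member came below an adjusted p of 0.325 by limma, so none was near the threshold. The counts of values that kept direction and side therefore do not measure how steady the sizes were. For genotype on high-fat diet, mt-Cytb went from -0.086 to -0.049 without KO_HFD replicate 8. All 24 class means under other scalings lay within 1 SD.

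Most same-numbered libraries did not deviate together: of 45 such pairs 8 had a correlation of deviations over 0.1. The median was 0.0051, against -0.00072 for pairs of different numbers. Of 32 libraries, 11 correlated best with their own number, and how many would do so by chance was not computed. These values do not decide whether replicate numbers mark a block. With the replicate block, 0 members were called, 3, 5, 1, 6, 2, 1 and 6 had an unadjusted p under 0.05 in the order of the comparisons, and 45 genes in all were called for diet averaged over genotypes, against 67 without it and 12 with age as a term. Blood genes called there went from 4 of 5 to 0 with the block, with age, with runs of label numbers and with no filter, to 2 by limma-voom, and to between 0 and 4 without single libraries. Counting alone would give a log2 SD of 0.082 to 0.46 over the 5 tested tRNAs, whose SD within groups was 0.24 to 0.65, and of 0.0025 to 0.014 over the mRNAs.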
